A study of Mus musculus with 12 samples.

Results

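The cytoplasmic ribosomal protein genes were followed in CD4+ T cells of 12 mice. The members were the protein-coding genes whose symbol is Rpl or Rps followed by a number, by p0, p1 or p2, or by a, with pseudogenes and the Rps6k kinases left out. This rule gave 86 of the 35275 genes in the table. Of these, 77 are core members, 31 of the small (40S) and 46 of the large (60S) subunit, and 9 are copies of a core gene or genes that only share the name (Rpl3l, Rpl7l1, Rpl10l, Rpl22l1, Rpl36al, Rpl39l, Rps27l, Rps27rt and Rps19bp1). The mice were C57BL/6 (B6) or B6.NZMSle1/Sle2/Sle3 (SLE123), a B6 congenic strain with 3 lupus susceptibility regions from NZM mice. Each strain was left untreated or given anti-CD45RB (clone MB23G2, 100 μg per dose, a 7-day course), with 3 mice per group. They were females, 9 to 12 weeks old by the paper's figure legend and 9 weeks old by its methods. The cells were enriched by negative magnetic selection. Expression is given as FPKM, the fragments of a gene per kilobase of its length, scaled to the same number of mapped fragments in each library.

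The ribosome joins a small subunit, which reads the mRNA, to a large subunit, which forms the peptide bond. Each core ribosomal protein is needed in about 1 copy per particle, apart from the acidic P-stalk proteins, and the genes are scattered over the genome. Their mRNAs are known for a terminal oligopyrimidine (TOP) tract, a C followed by other pyrimidines at the very start of the transcript, through which mTORC1 signalling controls their translation. Naive T cells hold few ribosomes per cell and make more after activation.

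The members lay on 19 chromosomes. Start regions were taken from RefSeq (GRCm38), which matched 66 of the 86 members with 78 starts. To show the start of the genes on which the results turn, 60 bases are given 5′ to 3′, 45 before the annotated start and 15 from it. Capitals mark the longest run of 6 or more C or T within 10 bases of the start, and of runs of equal length the one nearest to it.
Rps27: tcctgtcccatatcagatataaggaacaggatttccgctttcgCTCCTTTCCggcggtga
Rps27rt: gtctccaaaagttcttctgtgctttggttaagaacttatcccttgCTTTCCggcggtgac
Rps27l: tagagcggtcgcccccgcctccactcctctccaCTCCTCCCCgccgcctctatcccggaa
Rpl35a: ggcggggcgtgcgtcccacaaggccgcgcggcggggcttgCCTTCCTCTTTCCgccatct
Rpl12: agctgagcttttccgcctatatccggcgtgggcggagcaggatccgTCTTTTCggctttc
Rpl22l1: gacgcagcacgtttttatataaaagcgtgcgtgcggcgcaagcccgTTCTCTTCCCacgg
These stretches are chr3:90213634-90213693 on the minus strand, chr9:114982725-114982784 on the minus strand, chr9:66946041-66946100 on the plus strand, chr16:33056437-33056496 on the plus strand, chr2:32961667-32961726 on the plus strand and chr3:28805463-28805522 on the plus strand, in that order. For Rpl35a a start other than the first listed was chosen, whereas the first listed start is shown for the other genes. The pyrimidine run at the start shown for Rpl35a was 13 bases long and crossed that start.

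A run of this kind was found at 51.3% of the members' starts and at 30.0% of all 32851 starts in the same table. The letters CTTTCC stood within 20 bases of 15.4% of the members' starts on the sense strand, against 2.0% of all starts, and CTTTTC within 20 bases of 6.41% against 1.48%. In the 300 bases from 250 before to 50 after the start, CCGGAAGT was found on either strand at 15.4% of the members' starts and 3.89% of all starts, AAGATGGC at 10.3% and 2.75%, and GGGCGG at 60.3% and 35.7%. These motifs may overlap one another, and a match is a description of the letters only.

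Rps27rt is an intronless copy of Rps27. The coding sequence of Rps27rt was identical to that of Rps27 at 252 of 252 bases, whereas Rps27l, a paralog that p53 is known to induce, differed from Rps27 at 60 positions when both were read base by base from the start codon, without gaps. The first 60 coding bases are given with differences from Rps27 in capitals.
Rps27: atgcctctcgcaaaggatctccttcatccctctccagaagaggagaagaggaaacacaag
Rps27rt: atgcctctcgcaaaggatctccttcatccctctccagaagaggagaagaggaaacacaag
Rps27l: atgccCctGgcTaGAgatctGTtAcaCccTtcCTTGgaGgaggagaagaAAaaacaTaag
Reads of the Rps27rt coding sequence can therefore not be told apart from those of Rps27, and its values are uncertain. Identity in coding bases was 87.7% between Rpl36a and Rpl36al, 85.0% between Rpl39 and Rpl39l, 84.7% between Rpl10 and Rpl10l, 74.3% between Rpl3 and Rpl3l, 69.6% between Rpl22 and Rpl22l1 and 57.6% between Rpl7 and Rpl7l1.

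The libraries held 13563594 to 23642949 fragments. Markers of CD4+ T cells were present in every library, with a summed level of 11 genes between 3891 and 5306 FPKM. Some libraries stood apart. Immunoglobulin genes took 0.0895% to 0.336% of the fragments in B6 mice and 2.51% to 12.2% in SLE123 mice. Summed levels of 5 activation markers were 90.1 to 142 FPKM in B6 and 156 to 185 FPKM in SLE123, and those of 3 regulatory T cell markers 25.9 to 39.7 and 126 to 164 FPKM. Markers of other cells also differed. The 6 B cell markers summed to 6.11 to 7.30 FPKM in untreated and at most 33.5 FPKM in treated B6 mice, and to 36.7 to 223 FPKM in SLE123. The highest sum was in untreated replicate 3, the mouse with the lowest median core level. The next, 84.9 FPKM, was in untreated replicate 2, whose median core level was close to that of untreated B6 mice. The 7 plasma cell markers summed to 701 to 2577 FPKM in B6 and 21156 to 114828 FPKM in SLE123, and 3 basophil markers to 2.19 to 13.9 and 14.2 to 43.3 FPKM. The 5 erythroid markers summed to 0.706 to 10.8 FPKM in B6, 27.8 to 43.1 FPKM in untreated and 2.31 to 14.4 FPKM in treated SLE123. In treated B6 mice, 5 monocyte markers reached 38.8 to 113 FPKM and 4 neutrophil markers 9.85 to 15.8 FPKM, beside 8.16 to 14.3 and 0.412 to 1.53 FPKM in untreated B6. The same sums were 31.2 to 72.8 and 13.7 to 28.5 FPKM in untreated SLE123, and 17.7 to 23.8 and 7.67 to 29.0 FPKM in treated SLE123. The 6 liver markers summed to 40.7 to 48.0 FPKM in the 6 B6 libraries and in treated SLE123 replicate 1, and to at most 0.368 FPKM in the other 5. Among untreated SLE123 mice, replicate 2 stood apart in the ribosomal protein genes themselves.

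The ribosomal protein genes took a smaller share of the fragments in most SLE123 mice than in B6 mice. Their share was 8.91%, 8.81% and 9.06% in the untreated B6 mice numbered 3, 4 and 5, and 8.54%, 8.81% and 9.04% in the treated B6 mice numbered 1, 3 and 5. In treated SLE123 mice 1, 2 and 3 it was 6.87%, 6.29% and 6.22%, below every B6 mouse. In untreated SLE123 mice it was 6.55%, 8.63% and 5.34%, so that replicate 2 reached the range of treated B6 mice and replicate 3 was the lowest of the 12. The group means were 8.93% ± 0.128 (SD, n = 3) in untreated B6, 8.79% ± 0.252 in treated B6, 6.84% ± 1.66 in untreated SLE123 and 6.46% ± 0.361 in treated SLE123. Without untreated SLE123 replicate 2 the mean of that group was 5.94% ± 0.854 (SD, n = 2).

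**Figure D1:**
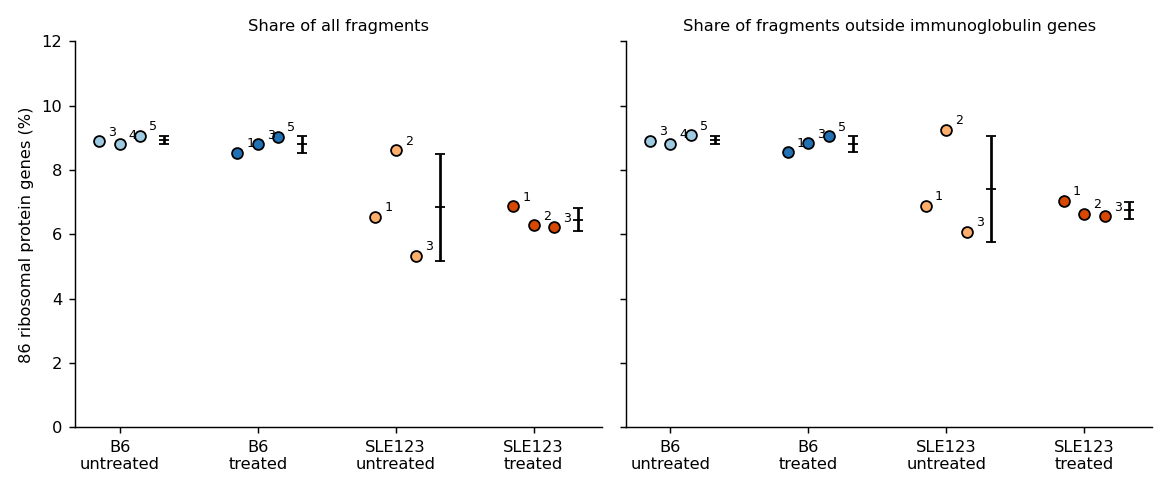
Share of fragments taken by the 86 ribosomal protein genes in each mouse (y axis, percent; numbers are replicates; bars show mean ± SD, n = 3), over all fragments on the left and over fragments outside immunoglobulin genes on the right. Treated SLE123 mice lie between 6.22% and 6.87% on the left, below all B6 mice, and untreated SLE123 replicate 2 lies apart from the other untreated SLE123 mice.

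With immunoglobulin genes left out of the total, a denominator chosen after the data were seen, the share was 6.75% ± 0.261 (SD, n = 3) in treated SLE123 and 8.81% ± 0.252 in treated B6. For the untreated groups it was 7.41% ± 1.65 in SLE123 and 8.94% ± 0.130 in B6, and replicate 2 of the SLE123 group was then the highest of the 12 mice at 9.25%. In bulk RNA, fewer cells of one type and less RNA per cell cannot be told apart.

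The core members moved together from mouse to mouse. The SD of a core gene's log2(FPKM + 1) over the 12 mice had a median of 0.282 over the 77 genes. After the median core level of each mouse was subtracted, it was 0.0717. The spread over the 12 mice includes the strain difference, and no other gene set was treated in this way. Relative to the mean of untreated B6 mice, the median core gene lay at -0.36, -0.49 and -0.51 on the log2 scale in treated SLE123 mice 1, 2 and 3. In untreated SLE123 mice 1, 2 and 3 it lay at -0.43, -0.02 and -0.73. Treated B6 mice lay between -0.05 and 0.03. The interquartile range over core genes within a mouse stayed between 0.119 and 0.177 in the 6 SLE123 mice. The median of small subunit genes lay below that of large subunit genes in all 6 SLE123 mice, at -0.40 and -0.33, -0.52 and -0.46, and -0.54 and -0.47 in treated mice 1, 2 and 3, and at -0.46 and -0.41, -0.03 and -0.01, and -0.77 and -0.68 in untreated mice 1, 2 and 3. The order was the same in treated B6 mice 1, 3 and 5, at -0.058 and -0.037, -0.017 and 0.004, and 0.027 and 0.031. In untreated B6 mice 3, 4 and 5 the values were -0.003 and -0.004, -0.016 and -0.021, and 0.021 and 0.025. The difference between the subunits was not tested.

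**Figure D2:**
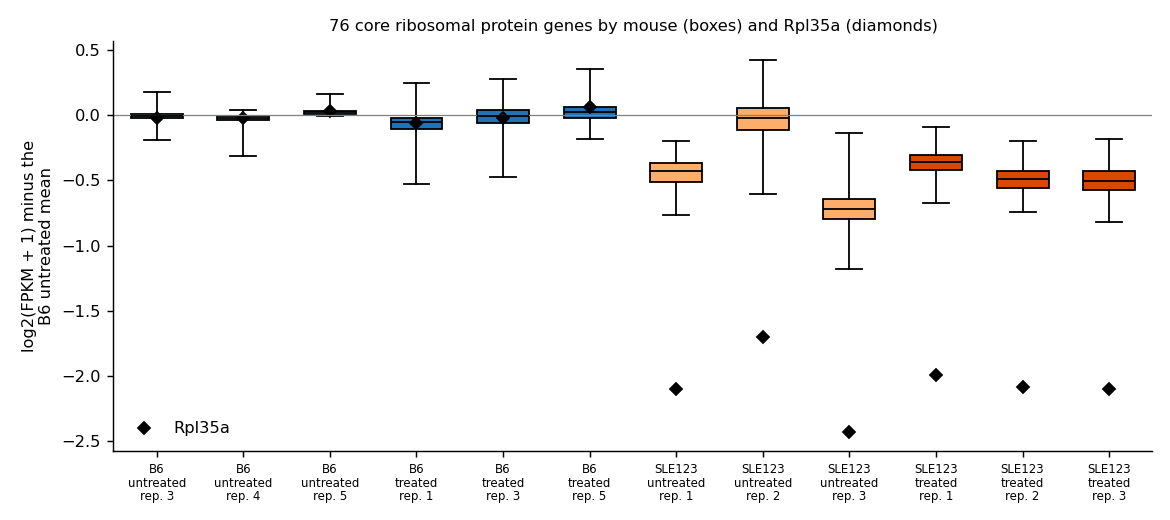
Log2(FPKM + 1) of core ribosomal protein genes in each mouse minus the mean of the untreated B6 mice (y axis). Boxes hold the quartiles of 76 genes, whiskers reach the lowest and highest gene, and diamonds are Rpl35a. The boxes of 5 SLE123 mice lie below 0, that of untreated SLE123 replicate 2 lies around 0, and Rpl35a is far below the boxes in all 6 SLE123 mice.

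Genes were tested with limma on log2(FPKM + 1), with p-values adjusted over all 13115 genes that had a mean of at least 0.5 FPKM. Of the 86 members, 84 passed this filter. Rpl10l was at 0 in every mouse and Rpl3l, the muscle form of Rpl3, had at most 2 fragments in any mouse.

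In treated mice, the strain difference reached nearly every ribosomal protein gene. SLE123 mice were lower than B6 mice for 79 of the 84 tested members, against 22.5% of all genes tested, and higher for 2, against 29.6% of all genes (limma, adjusted p under 0.05). All 31 members of the small subunit and 45 of the 46 of the large subunit were lower. The median log2 difference of the members was -0.43, beside 0.03 for all genes tested. The 3 treated mice of each strain did not overlap for 78 members that were lower in SLE123, against 27.1% of all genes, and for 2 that were higher, against 34.7%. Leaving out any mouse left 74 to 78 members lower. Without treated SLE123 replicate 1 there were 78, against 23.1% of all genes. That was the only SLE123 mouse with liver markers at the B6 level. In this fit the liver markers therefore also separated the strains. When immunoglobulin genes were left out of the scaling, 77 were lower, against 17.8% of all genes, and with all 12 mice in one fit 49 were, against 16.9%. The part of the marker differences in these values was not tested.

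In untreated mice, 9 members were lower in SLE123 than in B6, against 20.1% of all genes tested, and 1 was higher, against 22.8%. The median log2 difference of the members was -0.39, beside -0.03 for all genes, and 78 of the 84 had a difference below 0. Groups did not overlap for 36 members that were lower in SLE123, against 29.5% of all genes, and for 2 that were higher, against 29.1%. The number called rested on single mice. Without untreated SLE123 replicate 2, 74 members were lower, against 21% of all genes, with a median of -0.57. Without untreated B6 replicate 3, 4 or 5, the members called numbered 2, 3 and 2. Of 13115 genes, these 3 fits called 2296, 2300 and 2369 higher and 1414, 1372 and 1566 lower. With no mouse left out, the members called lower were Rpl35a, Rpl12, Rps7, Rps27rt, Rpl5, Rps19, Rpl24, Rps15a and Rpl10a. Of these 9, 8 were also lower in treated SLE123 mice. The exception was Rpl24, and the lone member that was higher was Rps27l. Scaled to the same summed FPKM in every library (TPM), which puts the median of all genes at -0.38, 72 members were lower, against 45.6% of all genes, and 1 higher, against 14.6%, with a median of -0.77.

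The differences in untreated and in treated mice come from separate mice. Across the 77 core members they had a Pearson correlation of 0.847 and a Spearman correlation of 0.573, and without Rpl35a the Pearson correlation was 0.519. These points share the libraries of each group and the genes' lengths. In treated mice the difference of a core gene had a Spearman correlation of 0.0424 with the length of its principal mRNA, over 77 genes. The Sle1, Sle2 and Sle3 regions lie on chromosomes 1, 4 and 7. The 22 core members on these chromosomes had a median strain difference of -0.38 in untreated and -0.47 in treated mice, and the 55 on other chromosomes -0.41 and -0.44. The split was by whole chromosome, and which members lie inside the regions was not determined.

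**Figure D3:**
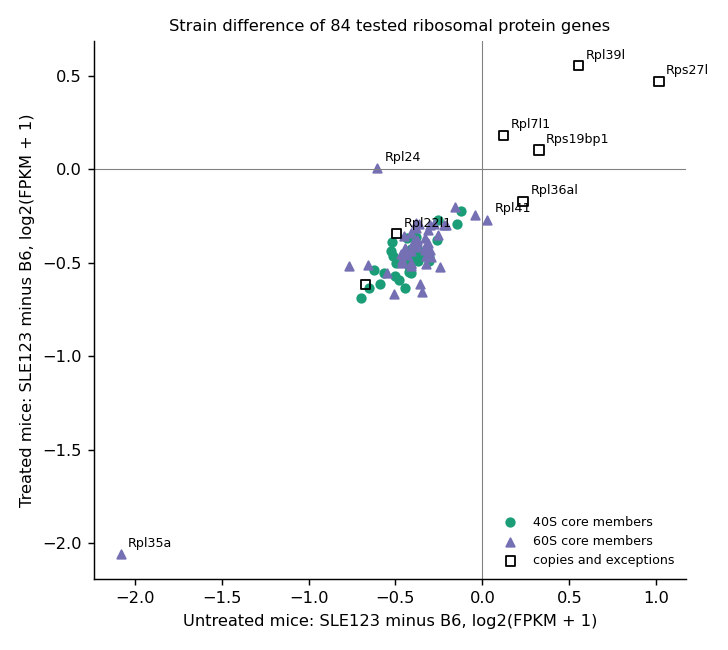
Difference between SLE123 and B6 on the log2(FPKM + 1) scale in untreated mice (x axis) and in treated mice (y axis) for the 84 tested ribosomal protein genes, 3 mice per group. Most core members form 1 group below 0 on both axes, Rpl35a lies near -2 on both, and Rps27l and Rpl7l1 are the members higher in SLE123 that passed the test.

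Taking all 6 mice of each strain, 25 members were lower in every SLE123 mouse than in any B6 mouse, against 14.8% of all genes tested, and Rps27l and Rpl7l1 were higher in every one, against 20%. Untreated SLE123 replicate 2 was thus below the B6 mice for the 25, although its median was not.

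Rpl35a stood far from the other members. This large subunit gene, one of those mutated in Diamond-Blackfan anaemia, spans 33056453 to 33060189 on chromosome 16 (mm10). Untreated B6 mice had 221, 222 and 230 FPKM, and treated B6 mice 216, 221 and 235 FPKM. Without treatment, SLE123 mice had 51.6, 68.3 and 40.7 FPKM, and with it 55.5, 52.2 and 51.4 FPKM. No SLE123 mouse came near the B6 range, and the 2436 to 11463 fragments behind each value leave little counting error. In FPKM, less RNA of this gene and fewer of its reads mapping to mm10 in SLE123 cannot be told apart, and mapping was not tested. The log2 difference was -2.08 ± 0.17 (SE) in untreated mice (limma, adjusted p = 0.00014) and -2.06 ± 0.05 in treated mice (adjusted p = 1.7e-06). Every alternative kept both calls. In untreated SLE123 replicate 2, Rpl35a lay at -1.70 on the log2 scale relative to the untreated B6 mean, while the median core gene lay at -0.02. In this mouse, 34 core members lay below the untreated B6 range and 23 above it.

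Expressed genes next to it, named after their values were seen, differed less. Lrch3 was lower by a log2 difference of -0.46 in untreated and -0.27 in treated SLE123 mice, Osbpl11 by -0.49 and -0.32, and Snx4 by -0.63 and -0.34 (limma, each adjusted p under 0.05). Of the pseudogene copies of Rpl35a, the highest, Rpl35a-ps2, had a mean of 3.24 FPKM in untreated B6 and 5.08 FPKM in untreated SLE123 mice. The length behind the authors' FPKM of Rpl35a was 2858 bases, while its principal mRNA has 491, so its level relative to other members is understated. Over all 256 pseudogene copies of ribosomal protein genes in the table, the summed level was 0.728% to 0.921% of that of the members.

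**Figure D4:**
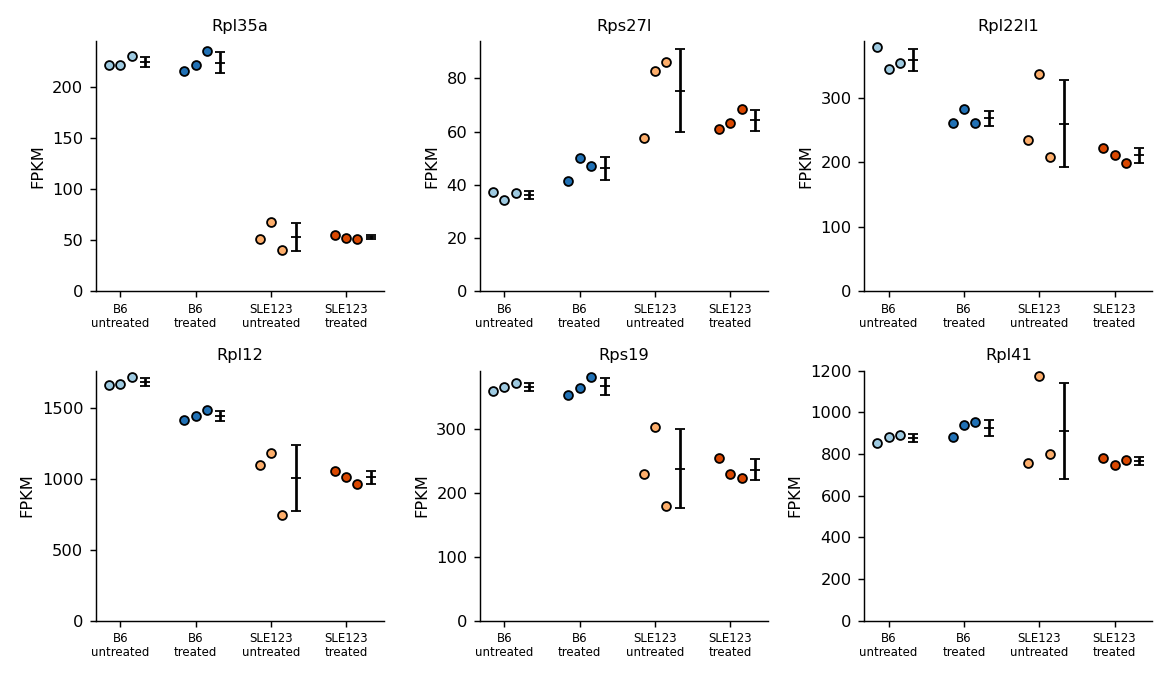
FPKM of 6 ribosomal protein genes in each mouse (points) with mean ± SD (bars, n = 3 per group); each y axis starts at 0. Rpl35a is separated by strain, Rps27l is higher in SLE123, and Rpl22l1 and Rpl12 are lower in B6 mice given the antibody.

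Among small subunit genes, Rps19, the gene most often mutated in Diamond-Blackfan anaemia, had 359, 366 and 372 FPKM in untreated B6 and 354, 365 and 381 FPKM in treated B6 mice. Its SLE123 levels were 230, 303 and 180 FPKM untreated and 255, 230 and 224 FPKM treated, with no overlap with B6. The log2 difference was -0.65 ± 0.18 (SE) in untreated (limma, adjusted p = 0.024) and -0.63 ± 0.06 in treated mice (adjusted p = 0.00023). Rps7, whose protein binds Mdm2, had the next lowest log2 difference after Rpl35a in treated mice, -0.69, with 1806 ± 62.0 FPKM (SD, n = 3) in B6 and 1120 ± 79.5 FPKM in SLE123 (limma, adjusted p = 0.00026). Rps28 was lower by -0.63 on the log2 scale (adjusted p = 9.5e-05). Rps6, the substrate of S6 kinase, went from 1176 ± 29.7 FPKM in treated B6 to 915 ± 44.3 FPKM in treated SLE123 (-0.36, adjusted p = 0.0014), and Rpsa, the laminin receptor precursor, from 1160, 1241 and 1241 FPKM to 1053, 993 and 977 FPKM (-0.27, adjusted p = 0.0057). All 19 members of the list of Diamond-Blackfan genes were lower in treated SLE123 mice, beside 76 of the 77 core members and 22.5% of all genes, and 5 in untreated mice, beside 20.1% of all genes.

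The P-stalk proteins recruit elongation factors to the large subunit. Rplp0, its base, had 2359, 2363 and 2412 FPKM in untreated B6, 2366, 2352 and 2527 in treated B6, 1549, 2019 and 1366 in untreated SLE123 and 1778, 1591 and 1562 in treated SLE123 mice. Again the strains did not overlap. The log2 difference was -0.56 ± 0.07 (SE) in treated mice (limma, adjusted p = 0.00075) and -0.55 ± 0.21 in untreated mice (adjusted p = 0.070). In treated mice Rplp2 differed by -0.67 and Rplp1 by -0.43, with adjusted p = 0.00018 and 0.0019.

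Rpl5 and Rpl11 form with 5S RNA the particle that inhibits Mdm2. Rpl5 had 1053, 1021 and 1044 FPKM in untreated B6 and 690, 802 and 515 FPKM in untreated SLE123 mice, a log2 difference of -0.66 ± 0.18 (limma, adjusted p = 0.025). Treated mice differed by -0.51 (adjusted p = 0.0011). Rpl11 differed by -0.39 in treated mice (adjusted p = 0.00089) and by -0.31 in untreated mice, where it did not pass (adjusted p = 0.20). Rpl10 (-0.20), Rpl41 (-0.27), which encodes the smallest ribosomal protein, and Rpl22 (-0.30) had small differences in treated mice that still passed the test, with adjusted p = 0.015, 0.0038 and 0.0037. The call for Rpl10 held in 3 of the 6 fits that left out a mouse. Rpl23a, with 75.4, 77.0 and 81.4 FPKM in treated B6 and 51.7, 48.1 and 47.7 FPKM in treated SLE123 mice, differed by -0.65 (adjusted p = 9.6e-05), and it overlaps a gene on the opposite strand.

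In treated mice, Rpl24 was the core member that was not called (log2 difference 0.008, limma, adjusted p = 0.97), while in untreated mice it was called lower in SLE123 (-0.61, adjusted p = 0.020). It was listed at 1.52 to 3.85 FPKM, from 17 to 42 fragments, although its product is a standard large subunit protein, and the predicted gene Gm28037 overlaps it on the same strand. Its value is therefore uncertain. Rpl35, next to Rpl23a among the lower-expressed members and also overlapped from the opposite strand, had 121, 136 and 139 FPKM in untreated and 147, 146 and 162 FPKM in treated B6 mice (0.20, limma, adjusted p = 0.082).

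Apart from Rpl35a and Rpl24, the 75 core members stood in treated SLE123 mice at 62.0% to 87.0% of their level in treated B6 mice, with a median of 73.6%.

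After anti-CD45RB in B6 mice, the median difference of the ribosomal protein genes was near 0, as was that of all genes. Of the 84 members, 4 were lower after treatment, against 6.12% of all genes tested, and 1 was higher, against 8.74% (limma, adjusted p under 0.05). The median log2 difference was -0.003 for the members and -0.002 for all genes. The 4 were Rpl22l1, Rpl12, Rpl36a and Rpl15, and the member that was higher was Rps27l. Groups did not overlap for 20 members that were lower and 7 that were higher, against 18.6% and 19.4% of all genes. With 1 mouse left out, 1 to 4 members were called. The fewest were called without untreated replicate 4, where 492 of 13115 genes were higher and 183 lower. The most were called without treated replicate 1, where 892 genes were higher and 501 lower. With all 12 mice in one fit 0 members were called, against 6.21% of all genes.

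Rpl22l1, a paralog of Rpl22 with a role in T cell development, had 379, 345 and 355 FPKM in untreated and 262, 282 and 261 FPKM in treated B6 mice. Every treated mouse lay below every untreated one, with a log2 difference of -0.42 ± 0.05 (SE; limma, adjusted p = 0.0036). The call held without any 1 mouse. Rpl22 itself, whose protein binds Rpl22l1 mRNA, had 206 ± 7.21 FPKM (SD, n = 3) without and 207 ± 4.99 FPKM with treatment (adjusted p = 0.93).

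Rpl12, a large subunit protein near the P-stalk, had 1662, 1664 and 1711 FPKM in untreated and 1409, 1440 and 1480 FPKM in treated B6 mice. The groups did not overlap, and the log2 difference was -0.22 ± 0.04 (limma, adjusted p = 0.013). It missed the threshold without untreated replicate 4, and the gene overlaps another on the opposite strand. Rpl36a (-0.16, adjusted p = 0.032) and Rpl15 (-0.11, adjusted p = 0.047) had smaller differences. The call for Rpl36a held in 1 of the 6 fits that left out a mouse, and that for Rpl15 in none.

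Rps27l had 37.3, 34.4 and 37.1 FPKM in untreated and 41.5, 49.9 and 47.0 FPKM in treated B6 mice. The log2 difference was 0.34 ± 0.07 (SE; limma, adjusted p = 0.024). The call held in 1 of the 6 fits that left out a mouse, with adjusted p of at most 0.088. In SLE123 mice it had 57.5, 82.6 and 86.1 FPKM without and 60.8, 63.2 and 68.7 FPKM with treatment, which overlap. The log2 difference there was -0.21 ± 0.16 (adjusted p = 0.60). Levels in all 6 SLE123 mice exceeded those in all 6 B6 mice, by 1.0 ± 0.15 on the log2 scale without treatment (adjusted p = 0.0020) and by 0.47 ± 0.08 with it (adjusted p = 0.0023).

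In SLE123 mice, limma called 0 of the 84 members after anti-CD45RB, against 0.0381% of all genes tested, and 0 members had an unadjusted p under 0.05, against 10.4%. Limma's voom method on recovered fragments also called 0 members, against 0.0229% of all genes, with 0 at an unadjusted p under 0.05, against 11.3%. The median log2 difference was -0.06 for the members and 0.04 for all genes. The direction depended on the untreated mice: without untreated replicate 2 the median was 0.13, and without untreated replicate 3 it was -0.22. The SE of single members, 0.17 for Rpl35a and 0.39 for Rps27, covers differences of the size called in B6, so that no lack of response is shown. Rpl22l1 had the lowest fitted value of the members in SLE123, -0.27 ± 0.18 (limma, adjusted p = 0.56), and Rpl19 one of the higher, 0.07 ± 0.26 (adjusted p = 0.93).

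The interaction, the effect in SLE123 minus that in B6, was tested on all 12 mice. It called 0 of the 84 members with limma, against 3.64% of all genes, and 0 with voom, against 3.94%. At an unadjusted p under 0.05 there were 3 members with limma, against 25.1% of all genes, and 2 with voom, against 25.3%. The 3 were Rps27l (-0.54 ± 0.18, adjusted p = 0.11), Rpl24 (0.61 ± 0.23, adjusted p = 0.13) and Rpl36al (-0.40 ± 0.15, adjusted p = 0.14). Without untreated SLE123 replicate 1, Rps27l and Rpl36al passed, with adjusted p = 0.0033 and 0.014, against 22.2% of all genes called in that fit. For Rpl22l1 the interaction was 0.15 ± 0.20 (adjusted p = 0.67), so that the responses of the strains were not shown to differ.

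Of the 7 tested copies and namesakes, 3 were lower (Rpl22l1, Rpl36al and Rps27rt) and 2 higher (Rps27l and Rpl7l1) in treated SLE123 than in treated B6 mice, against 22.5% and 29.6% of all genes. Rpl7l1, a nucleolar relative of Rpl7, had 29.6 ± 0.309 FPKM (SD, n = 3) in treated SLE123 and 25.9 ± 0.792 FPKM in treated B6, a log2 difference of 0.18 ± 0.04 (limma, adjusted p = 0.0072), while Rpl7 was lower by -0.38 (adjusted p = 0.0030). Rescaling to TPM removed the call for Rpl7l1. Rpl36al, an intronless copy of Rpl36a, had 147, 163 and 161 FPKM in treated B6 and 136, 137 and 145 in treated SLE123 mice (-0.17, adjusted p = 0.027). It overlaps the predicted gene Gm49383, and its call held in 2 of the 6 fits that left out a mouse. Rps27rt differed by -0.67 in untreated and -0.62 in treated mice (both adjusted p = 0.048), beside -0.51 and -0.46 for Rps27. Its call in treated mice held in 1 of the 6 fits that left out a mouse.

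Rpl39l, the testis form of Rpl39, was near the detection limit with 2 to 32 fragments and a highest level of 2.13 FPKM. Rps19bp1, which is not a ribosomal protein, had 14.1 ± 0.844 FPKM (SD, n = 3) in untreated B6 and 18.4 ± 4.99 FPKM in untreated SLE123 mice (limma, adjusted p = 0.18). Rps4l, which carries no protein-coding label in the annotation and is no member, had 0.857 to 1.23 FPKM in untreated B6, 2.63 to 3.77 in untreated SLE123 and 1.51 to 2.08 FPKM in treated SLE123 mice. Its interaction was -0.85 ± 0.18 (limma, adjusted p = 0.031). Rps4x, its parent, was lower in treated SLE123 mice by -0.39 (adjusted p = 0.0044).

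Rack1 and Fau, ribosomal proteins with other symbols, were also lower in treated SLE123 mice. Rack1, a scaffold on the small subunit, had 412 ± 13.9 FPKM (SD, n = 3) in treated B6 and 303 ± 18.8 FPKM in treated SLE123 mice (-0.44, limma, adjusted p = 0.00072). Fau, which encodes a ubiquitin-like protein fused to a small subunit protein, had a log2 difference of -0.50 in treated mice (limma, adjusted p = 0.00033). After treatment in B6, Fau was higher, with 1272 ± 6.48 FPKM before and 1438 ± 44.0 FPKM after (0.18, adjusted p = 0.024).

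Other genes of the translation system are described by counts. Of all genes tested, 20.1% were lower and 22.8% higher in untreated SLE123, 22.5% lower and 29.6% higher in treated SLE123, and 6.12% lower and 8.74% higher after treatment in B6, and the counts of each list are read against these shares. Of 15 elongation factors and other TOP mRNAs, 9 were lower in treated SLE123 and 1 was higher, with a median of -0.19 beside 0.03 for all genes. Gas5, a TOP host gene of small nucleolar RNAs, had 114 ± 2.54 FPKM (SD, n = 3) in untreated B6, 91.2 ± 4.55 FPKM in treated B6, 36.5 ± 2.77 FPKM in untreated SLE123 and 36.8 ± 1.64 FPKM in treated SLE123 mice. It fell after treatment in B6 by 0.32 on the log2 scale (limma, adjusted p = 0.0059). Of 22 subunits of eIF3 and eIF4, 7 were lower and 4 higher in treated SLE123. Eif4ebp1, an mTORC1 target that blocks cap binding, was higher, at 13.7 ± 0.260 FPKM against 7.78 ± 1.14 FPKM in treated B6 (0.75, limma, adjusted p = 0.00068).

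Of 47 ribosome assembly factors, 21 were lower in untreated SLE123 and 15 in treated SLE123, with medians of -0.21 and -0.10, and none was higher, against 20.1% and 22.5% of all genes lower. In B6, 7 of them were lower after treatment and 0 higher, against 6.12% and 8.74%. Mdn1, an ATPase of large subunit assembly, went from 16.9 ± 1.29 FPKM (SD, n = 3) to 12.4 ± 1.61 FPKM with treatment in B6 (-0.43, limma, adjusted p = 0.029). Of 14 RNA polymerase I genes, 6 and 7 were lower in untreated and treated SLE123. Of 23 genes of mTORC1, S6 kinase and TOP control, 6 and 8 were lower and 0 and 1 higher. For ribosome quality control, 3 and 2 of 10 were lower.

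Of 76 mitochondrial ribosomal proteins tested, 10 were higher and 1 lower in untreated SLE123, and 19 were higher and 5 lower in treated SLE123, with medians of 0.10 and 0.06, beside -0.03 and 0.03 for all genes. Of all genes, 22.8% were higher and 20.1% lower in untreated SLE123, and 29.6% and 22.5% in treated SLE123. Nuclear-encoded respiratory chain subunits were higher for 17 and lower for 2 of 75 in untreated SLE123, and higher for 18 and lower for 11 in treated SLE123. No test of the difference between lists was run.

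**Figure D5:**
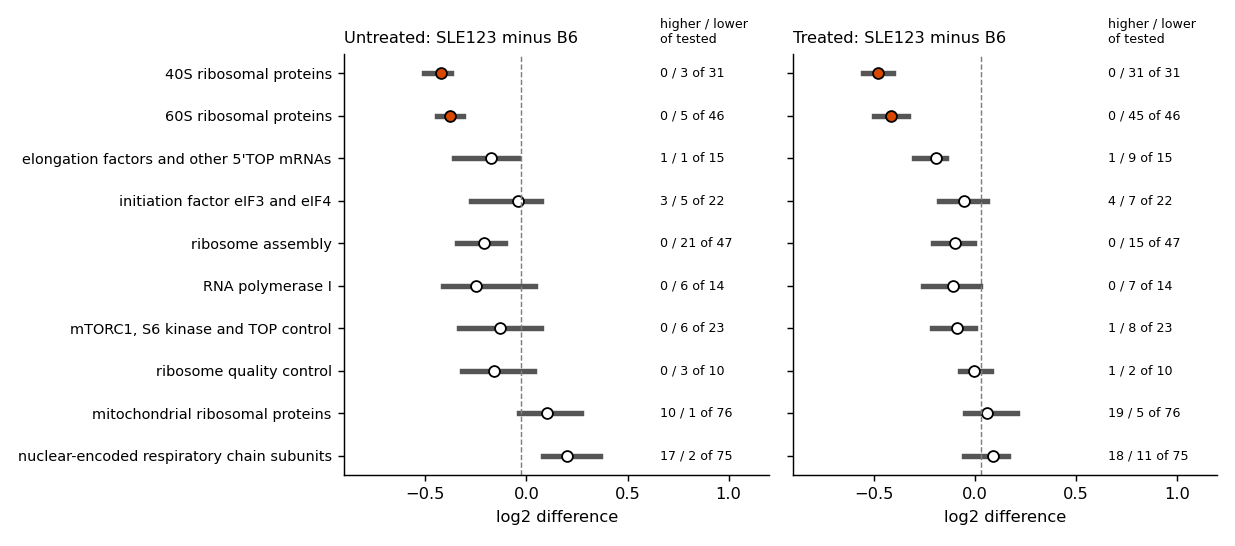
Median (point) and quartiles (bar) of the log2 difference between SLE123 and B6 over the tested genes of 10 lists, in untreated mice (left) and treated mice (right); the numbers give genes called higher and lower of those tested, and the dashed line is the median of all genes. The cytoplasmic ribosomal proteins (filled points) have the lowest medians of the lists in both comparisons.

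The members covered a wide range of levels. The 5 highest by the authors' FPKM were Rps27, Rplp1, Rps14, Rps3a1 and Rplp0, with means over the 12 mice of 3428, 3180, 2179, 2112 and 2020 FPKM. The core median was 948 FPKM, and 61 of 77 were at 500 FPKM or more. This order rests on the gene lengths that the authors used, which were 255 bases for Rps27, against 345 in its principal mRNA, and 2858 for Rpl35a, against 491. Counted per kilobase of the principal mRNA on the same scale, a scale chosen after the data were seen, Rplp1 led with 3154 and Rps27 had 2533. Across the 77 core members the scales had a Spearman correlation of 0.740. A difference of one gene between groups does not change with its length, apart from the pseudocount.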

How the data were processed

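RNA from magnetically enriched CD4+ T cells of 12 mice was sequenced as 1 library per mouse. The methods also mention a later sort by CD25, which the titles do not name. Per the labels, base calling used CASAVA 1.8 and mapping used STAR to mm10; the annotation and counter are not given in the sources used here. Whether the libraries kept strand is not stated, so reads of overlapping genes on opposite strands may not be told apart. The authors deposited FPKM per Ensembl gene. They tested with DESeq2, which was not run here. FPKM values were whole multiples of 1 fragment for 100% of 23230 genes above 0 (tolerance 0.02 of a fragment), which gave fragment counts. Values after ± are SDs over the mice of a group or SEs of the limma fit.

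Symbols came from GENCODE M21 (34490 of 35275 identifiers, GRCm38). Tests covered 13115 genes whose average over all mice reached 0.5 FPKM, with limma 3.58.1 (R 4.3.3; eBayes with a trend) on log2(FPKM + 1), a scale that understates changes of low genes, with Benjamini-Hochberg adjustment at 0.05. Each comparison of 3 against 3 mice used its 6 mice, and the interaction used all 12. The fit was tested on simulated data. P-values set the difference between groups against the spread between mice, which the fit moderates across genes.

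The members and lists were chosen with earlier results of these data known. Named members were the 5 highest, those under the filter, the 4 largest differences each way and 3 smallest adjusted p per comparison, copies with their parents, the P-stalk and a set of well-studied members; of other lists, the largest difference each way in B6. The other settings tried were 0.1 as pseudocount, no filter or one at 1 FPKM, TPM, median centring, quantile normalization, scaling without immunoglobulin or ribosomal protein genes, voom on fragments, eBayes without a trend, all 12 mice in one fit, a replicate block, core members only, and each mouse left out. Some marker and list genes are not reported here.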

Additional observations from a re-analysis of the deposited data

How the results depend on the processing

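Numbers of called members moved with the settings in B6 and between untreated strains. After treatment in B6, 5 members were called, against 14.9% of all genes. There were 1 with no filter, 8 with TPM, 10 with quantile normalization, 10 with voom and 3 with eBayes without a trend. There were 3 without copies, 0 with all 12 mice in one fit, and 1 to 4 with a mouse left out. Of all genes, TPM called 14.9%, voom 20.7% and all 12 mice in one fit 6.21%. Genes called higher and lower were 996 and 1051 of 13115 with quantile normalization and 981 and 663 without a trend. With no filter they were 756 and 378 of 23230. Between untreated strains, 10 were called, against 42.9% of all genes. There were 2 with no filter, 73 with TPM, 39 with quantile normalization, 19 with voom, 17 without a trend, 49 with all 12 mice, and 2 to 75 with a mouse left out. Of all genes, TPM called 60.1%, voom 43.8% and the fit without untreated SLE123 replicate 2, which gave the 75, 44.4%. Genes called higher and lower were 2360 and 4570 of 13115 with quantile normalization, 2965 and 2543 without a trend, and 3606 and 3685 with all 12 mice. With no filter they were 3384 and 2315 of 23230. Between treated strains, 81 were called, against 52.1% of all genes. There were 51 with all 12 mice, where 3335 of 13115 genes were higher and 2221 lower, and 76 to 80 with a mouse left out. The interaction called 0 to 2 with a mouse left out, the 2 without untreated SLE123 replicate 1, against 22.2% of all genes. The median difference between untreated strains was -0.77 with TPM, -0.62 with quantile normalization and -0.57 to -0.23 with a mouse left out. Between treated strains it was -0.61 with TPM. After treatment in SLE123 the median changed sign, to 0.14 with TPM, 0.14 with quantile normalization and -0.22 to 0.13 with a mouse left out. For the interaction it was 0.16 with TPM, 0.14 with quantile normalization and -0.21 to 0.14 with a mouse left out. The causes were not tested, apart from the smaller number of mice in the last. TPM also moved the median of all genes, to -0.38 between untreated and -0.14 between treated strains, and the members then lay at -0.39 and -0.48 relative to it. Among all genes it called 45.6% lower and 14.6% higher between untreated strains, and 34.2% and 18.6% between treated strains.

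As a share of summed FPKM, the members took 22.2%, 21.7%, 13.2% and 14.1% in untreated B6, treated B6, untreated SLE123 and treated SLE123 mice. The mean core level on the log2 scale was 11.07, 11.05, 10.27 and 10.41 with TPM. Scaled without ribosomal protein genes it was 9.94 in untreated B6, 9.93 in treated B6 and 9.44 in treated SLE123 mice. With the replicate number as a block, 0 members were called in B6, 16 between treated strains (median -0.40), 0 in SLE123 and 0 in the interaction. Of 13115 genes, these fits called 3, 2170, 2 and 2 higher and 0, 1242, 2 and 33 lower, in that order. Samples with the same number did not all deviate together (correlations of -0.14 and -0.09 in B6, 0.14, -0.16 and 0.27 in SLE123, and 0.06 and 0.14 between treated strains). So few values cannot show whether the number marks a pairing. Without treatment the strains shared number 3 alone, which allowed no block.

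For single members and list genes, 90 values gained and 113 lost significance under an alternative, and 0 reversed a call. Members with few fragments, such as Rpl24 and Rpl39l, are limited by counting error, and comparisons with untreated SLE123 mice by the spread between those 3 mice.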
